A study of Mus musculus with 8 samples.

Results

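The genes described here encode the enzymes and regulators of cholesterol and fatty acid synthesis, 28 names fixed by the rule, in skeletal cells from 2 parts of the mouse skeleton. Of these, 27 were rows of the table of 22053 rows, each name matched a single row, and Mvd was not analysed here. All 8 libraries came from wild-type mice at postnatal day 10. The 4 vSSC libraries (candidate vertebral skeletal stem cells) came from spine and the 4 lbSSC libraries (long bone skeletal stem cells) from femur and tibia, and in each group replicates 1 and 2 were male and replicates 3 and 4 female. Cells of both groups carried the same sorted phenotype, CD31-, TER119-, CD45-, Thy-, 6C3- and CD105- with CD200+. The labels call the samples biological replicates without giving the number of animals behind each, so p-values here speak only of the variation among these samples, which may be technical.

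Cholesterol is built in the cytosol and endoplasmic reticulum from acetyl-CoA. The mevalonate steps lead to the isoprenoid farnesyl diphosphate, a pair of these is joined to squalene, and squalene is folded into lanosterol and trimmed to cholesterol. When sterol in the endoplasmic reticulum is low, the SREBP transcription factors, encoded by Srebf1 and Srebf2, are released from their Insig anchors and cut to an active form that reaches the nucleus. There they bind sterol regulatory elements together with NF-Y and Sp1, and SREBP-2 is known mainly for sterol genes while SREBP-1c is known mainly for fatty acid genes. Chondrocytes of the growth plate need sterol synthesis, and inherited defects of its late enzymes are known to cause skeletal malformations.

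To show the DNA in front of genes that moved together, 5 promoters are printed here, 4 of genes that were called higher in vSSC and that of Fasn, which was not called. RefSeq promoter windows on GRCm38.p6 were found for 21 of the 27 genes and reach from 250 bases before to 50 bases after a start. Each printed run holds the 180 bases before the start, read 5′ to 3′ toward the gene, and overlaps no exon of GENCODE M21. Capitals mark matches on either strand to 4 motifs, so a match to the other strand is seen as its reverse complement. The sterol regulatory element core was searched as TCACNCCAC. The NF-Y box, bound by the factor NF-Y, was searched as CCAAT. The E-box, which SREBP and many other factors can bind, was searched as CACGTG and reads the same on both strands. The GC box, bound by Sp1, was searched as GGGCGG.
Hmgcs1, chr13:119690171-119690350, forward strand: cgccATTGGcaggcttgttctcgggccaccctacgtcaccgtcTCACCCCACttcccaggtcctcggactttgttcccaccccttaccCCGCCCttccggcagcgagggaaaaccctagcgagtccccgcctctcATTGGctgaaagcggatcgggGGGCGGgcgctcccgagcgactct
Mvk, chr5:114444089-114444268, forward strand: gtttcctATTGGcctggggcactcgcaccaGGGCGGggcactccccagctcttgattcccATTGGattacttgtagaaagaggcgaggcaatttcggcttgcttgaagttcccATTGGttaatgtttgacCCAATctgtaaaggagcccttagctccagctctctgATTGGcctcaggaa
Ebp, chrX:8193513-8193692, reverse strand: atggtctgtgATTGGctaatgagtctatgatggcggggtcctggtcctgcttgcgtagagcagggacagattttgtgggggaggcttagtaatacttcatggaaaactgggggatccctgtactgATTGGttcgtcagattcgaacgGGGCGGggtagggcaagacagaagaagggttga
Sc5d, chr9:42264301-42264480, reverse strand: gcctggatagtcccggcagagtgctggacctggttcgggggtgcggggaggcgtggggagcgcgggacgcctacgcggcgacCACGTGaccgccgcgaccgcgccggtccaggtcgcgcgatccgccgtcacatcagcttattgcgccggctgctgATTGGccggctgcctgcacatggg
Fasn, chr11:120824548-120824727, reverse strand: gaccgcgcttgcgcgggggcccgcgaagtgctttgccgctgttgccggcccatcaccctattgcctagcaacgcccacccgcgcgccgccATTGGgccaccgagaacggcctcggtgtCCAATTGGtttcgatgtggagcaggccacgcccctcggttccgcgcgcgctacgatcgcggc

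The Hmgcs1 promoter held the element core at 137 bases before the start, between NF-Y boxes at 176 and 45 bases before it, and was the single gene of the 21 with this core. In Mvk, NF-Y boxes were found at 5 places. In Fasn a forward and a reverse NF-Y box overlap, which gives the run of 8 capitals. Over the 21 genes, 18 (85.7%) held an NF-Y box in at least 1 window, compared with 43.0% of the 8314 tested genes that have a window. The GC box was found in 17 (81.0%) against 71.9%, the E-box in 4 (19.05%) against 12.16%, and the element core in 1 (4.76%) against 1.40%. The absence of these letters from a window says nothing about binding elsewhere or to other letters. Among the 15 genes with a window that were called between the sites, 14 held an NF-Y box, as did 4 of the 6 that were not called. Over all 32851 windows, including those of genes not tested, 37.4% held an NF-Y box. These are descriptions of letters and carry no test.

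**Figure D1:**
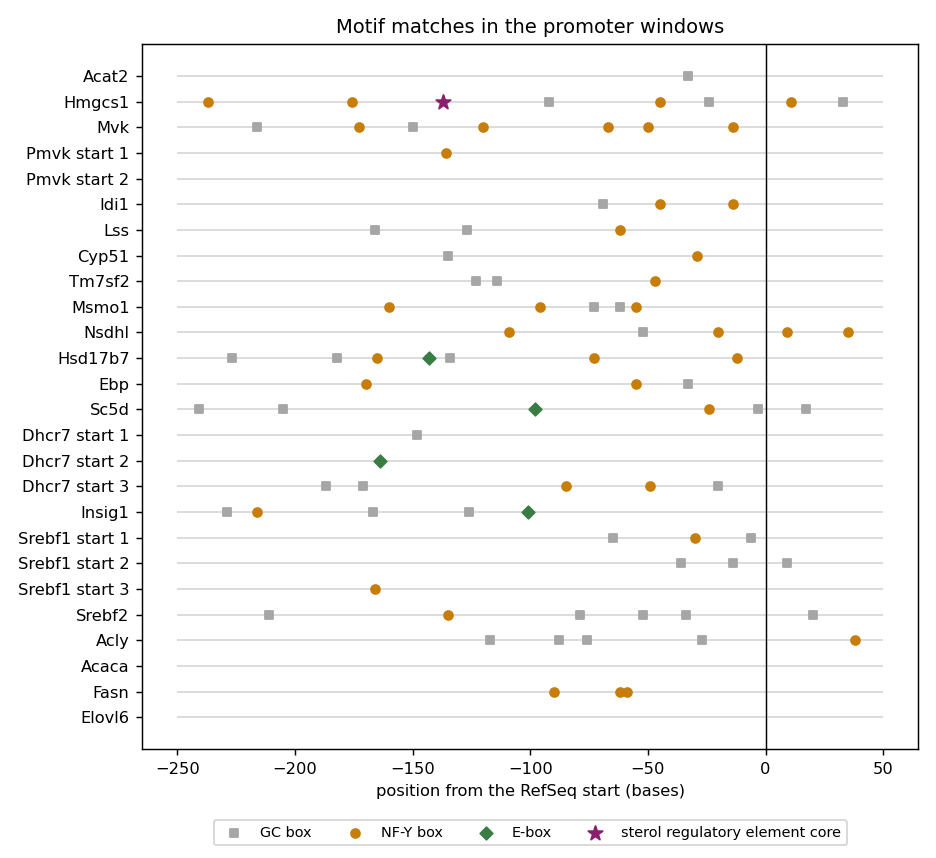
Motif matches in the RefSeq promoter windows of 21 genes, by position from the start in bases (x axis), 1 line per start. Circles are NF-Y boxes, squares GC boxes, diamonds E-boxes and the star the sterol regulatory element core; 18 genes carry a circle and Hmgcs1 alone carries the star.

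Expression was given in FPKM, fragments scaled by transcript length and by library size, which allows levels of different genes to be set side by side. All 27 genes reached the filter of 1 FPKM in at least 4 of the 8 libraries. The lowest of their values in any library was 2.83 FPKM, that of Acaca in vSSC replicate 1, so none depended on the group where it is high. The median gene of the set lay at the 74.9th percentile of mean FPKM among the 10729 genes tested, and the lowest, Acaca, at the 38.7th. A difference between the sites is the vSSC mean less the lbSSC mean of log2(FPKM + 1), given ± SE from a limma fit to the 8 libraries, with Benjamini-Hochberg adjusted p-values over all tested genes and calls under 0.05. A level written with ± is a group's mean FPKM and its SD over 4 libraries. Bulk values do not separate a change in the number of expressing cells from a change in RNA per cell.

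Summed FPKM ranged from 460302 to 571869 over the libraries, and depth in reads was not used here, so the counting error of single values is unknown. Cartilage and bone genes were expressed in both groups, with Col2a1 between 7443 and 20002 FPKM over all libraries. Col1a1 differed widely by site, between 622.8 and 787.6 FPKM in vSSC and between 3636 and 5344 in lbSSC (-2.48 ± 0.15, adjusted p = 1.00e-06 by limma). Cd200 lay between 84.2 and 142.7 FPKM, and the genes of the negative gate, Pecam1, Ptprc, Thy1, Enpep and Eng, reached at most 1.76 FPKM in any library. Of all tested genes, 14.3% were called higher and 9.17% lower in vSSC, and 2769 had groups that did not overlap. The median difference over all tested genes was 0.08. Of the calls 60.9% were higher in vSSC, a share that scaling moved to 51.9% (median of ratios), 50% (quantiles) and 42.4% (one sum), with median differences over all genes of 0.01, 0.03 and -0.04.

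Mean FPKM of every sterol enzyme gene measured was higher in the vertebral cells, while sterol synthesis itself was not measured. Of the 27 genes, 21 were higher in vSSC, none was lower and 6 did not pass the test, against 14.3% and 9.17% of all tested genes (23.5% in either direction). At an unadjusted p under 0.05 by limma, 22 of the 27 were higher and none lower, against 2605 and 1514 of the 10729 tested genes. The groups did not overlap in 21 genes, all with vSSC higher, against 15.8% of all tested genes (25.8% in either direction). Their median difference was 0.98, with 26 of 27 above 0. All 17 enzymes between acetyl-CoA and cholesterol that were measured were higher, with ratios of the mean FPKM from 1.60 to 3.03 and of at least 2 in 14 of them. Among the regulators and the fatty acid genes, 4 of 10 passed. The set was proposed with earlier results of these data in view, so the counts describe it and carry no test of their own.

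**Figure D2:**
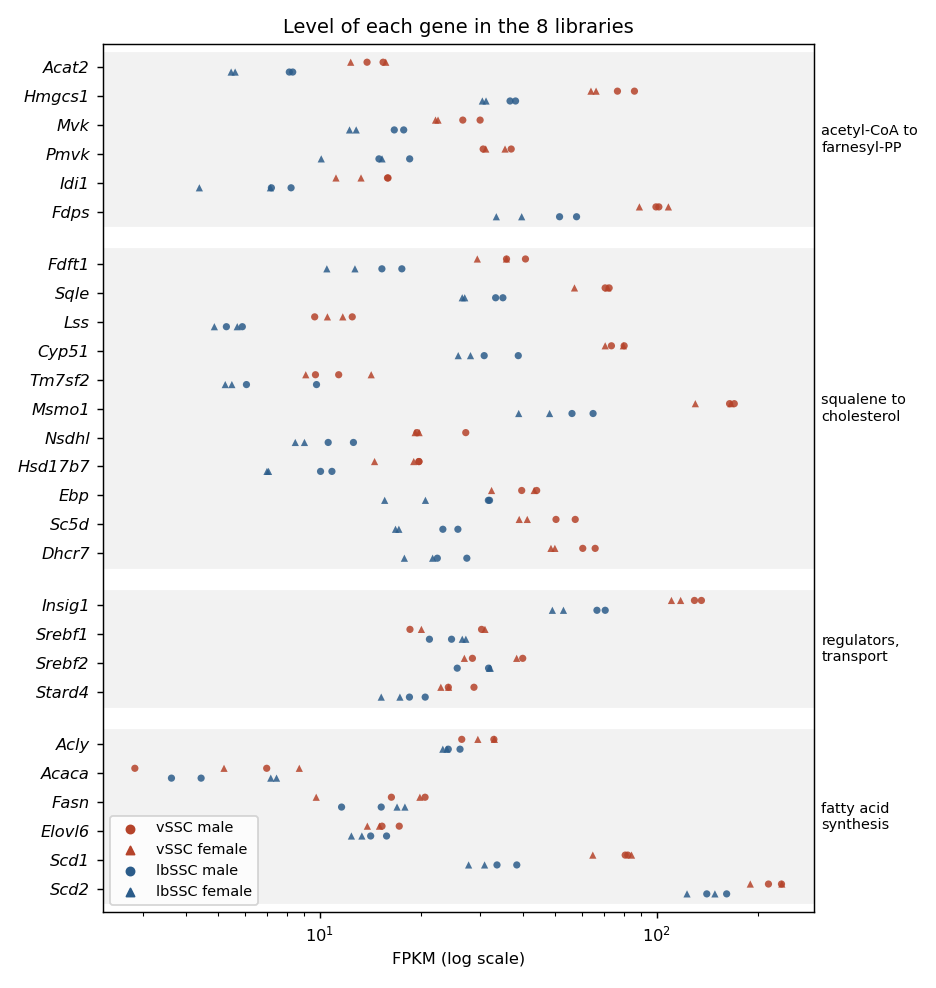
FPKM of each gene in each library on a log axis, ordered by pathway step, with vSSC in red, lbSSC in blue, circles for males and triangles for females. In 16 of the 17 sterol enzymes all red points lie to the right of all blue points, while those of Srebf1, Srebf2, Acaca, Fasn and Elovl6 mix.

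The genes of the mevalonate steps were higher in vSSC together, 6 of 6 and with a median difference of 1.03. Hmgcs1, the cytosolic HMG-CoA synthase, was at 85.9, 76.5, 66.1 and 63.8 FPKM in vSSC replicates 1 to 4 and at 38.1, 36.7, 31.2 and 30.4 FPKM in lbSSC replicates 1 to 4. Every vertebral library lay above every long bone library, and the males were the higher pair in both groups. The difference was 1.07 ± 0.13 (adjusted p = 0.000156). Fdps, which makes farnesyl diphosphate, was at 101.5, 99.5, 108.4 and 88.9 FPKM in vSSC and at 57.9, 51.5, 39.8 and 33.4 FPKM in lbSSC. Its groups were also separate, with a difference of 1.14 ± 0.16 (adjusted p = 0.000480). Pmvk, the phosphomevalonate kinase, rose from 14.7 ± 3.46 in lbSSC to 33.6 ± 3.20 FPKM in vSSC (1.16 ± 0.16). Mvk, the mevalonate kinase before it in the chain, went from 14.9 ± 2.73 to 25.3 ± 3.73 FPKM, the smallest of the 6 differences (0.73 ± 0.15, adjusted p = 0.00561). Acat2, a thiolase that joins acetyl-CoA units, and Idi1, which interconverts the isoprenoid building blocks, were the least abundant of the 6 at 14.3 ± 1.55 and 14.1 ± 2.30 FPKM in vSSC, and differed by 0.98 ± 0.16 and 0.98 ± 0.18. In all 6 genes the groups did not overlap.

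From squalene onward 11 of 11 genes were higher, with a median difference of 1.13. Msmo1, the methylsterol monooxygenase that starts removal of the C4 methyl groups, was the most abundant of the 17 enzymes and differed most. It was at 164.6, 170.0, 166.1 and 130.3 FPKM in vSSC and at 56.1, 64.8, 48.1 and 39.0 FPKM in lbSSC, so that the lowest vertebral library still held about 2-fold the highest long bone library. The difference was 1.60 ± 0.15 (adjusted p = 3.96e-05), a ratio of means of 3.03. Its partners in the same removal, Nsdhl and Hsd17b7, rose from 10.2 ± 1.85 to 21.4 ± 3.85 FPKM (1.00 ± 0.15) and from 8.74 ± 2.02 to 18.2 ± 2.48 FPKM (1.00 ± 0.16).

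Fdft1, the squalene synthase that commits farnesyl diphosphate to sterols, was at 35.9, 40.8, 35.8 and 29.4 FPKM in vSSC and at 15.3, 17.5, 12.7 and 10.5 FPKM in lbSSC (1.29 ± 0.16, adjusted p = 0.000202). Sqle, the squalene epoxidase and another control point of the pathway, rose from 30.4 ± 4.34 to 67.8 ± 7.23 FPKM (1.13 ± 0.13). Lss, which folds the epoxide into lanosterol, was the least abundant of the 17 enzymes in lbSSC and still had separate groups, at 5.44 ± 0.455 and 11.1 ± 1.25 FPKM (0.91 ± 0.13). Cyp51, the demethylase that acts on lanosterol, rose from 30.9 ± 5.71 to 75.9 ± 4.78 FPKM (1.29 ± 0.13, adjusted p = 5.31e-05). Among the last steps, Sc5d, a sterol desaturase, went from 20.7 ± 4.44 to 47.0 ± 8.41 FPKM (1.15 ± 0.17). Dhcr7, the reductase that completes cholesterol and is defective in Smith-Lemli-Opitz syndrome, went from 22.3 ± 3.903 to 56.1 ± 8.28 FPKM (1.30 ± 0.14, adjusted p = 0.000110). In each of these 6 genes the groups did not overlap.

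The smallest differences among the 17 enzymes were those of Tm7sf2 and Ebp. Tm7sf2, a sterol reductase whose reaction the lamin B receptor can also carry out, was at 11.4, 9.72, 14.2 and 9.10 FPKM in vSSC and at 6.07, 9.79, 5.49 and 5.25 FPKM in lbSSC. Here lbSSC replicate 2 lay above 2 vertebral libraries, the only overlap among the 17 enzymes (0.68 ± 0.19, adjusted p = 0.0270). Ebp, a sterol isomerase, was at 39.8, 44.1, 43.3 and 32.4 FPKM in vSSC and at 31.9, 31.7, 20.6 and 15.6 FPKM in lbSSC, so the lowest vertebral library and the highest long bone library nearly met (0.70 ± 0.21, adjusted p = 0.0317). The call of Tm7sf2 was lost with no filter (adjusted p = 0.0641) and without vSSC replicates 1 or 3 or lbSSC replicates 1, 3 or 4 (0.0518 to 0.0815). That of Ebp was lost with no filter (0.0802), after quantile normalization (0.0508) and without vSSC replicates 1, 2 or 3 or lbSSC replicates 3 or 4 (0.0655 to 0.0873). In the 2 fits added after the data were seen both calls were lost as well. Without both vSSC replicates 1 and 3 the difference was 0.48 for Tm7sf2 (adjusted p = 0.203) and 0.64 for Ebp (0.178). When each library's share of ribosomal protein genes in summed FPKM entered as a covariate, it was 0.18 for Tm7sf2 (0.7997) and 0.07 for Ebp (0.924).

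**Figure D3:**
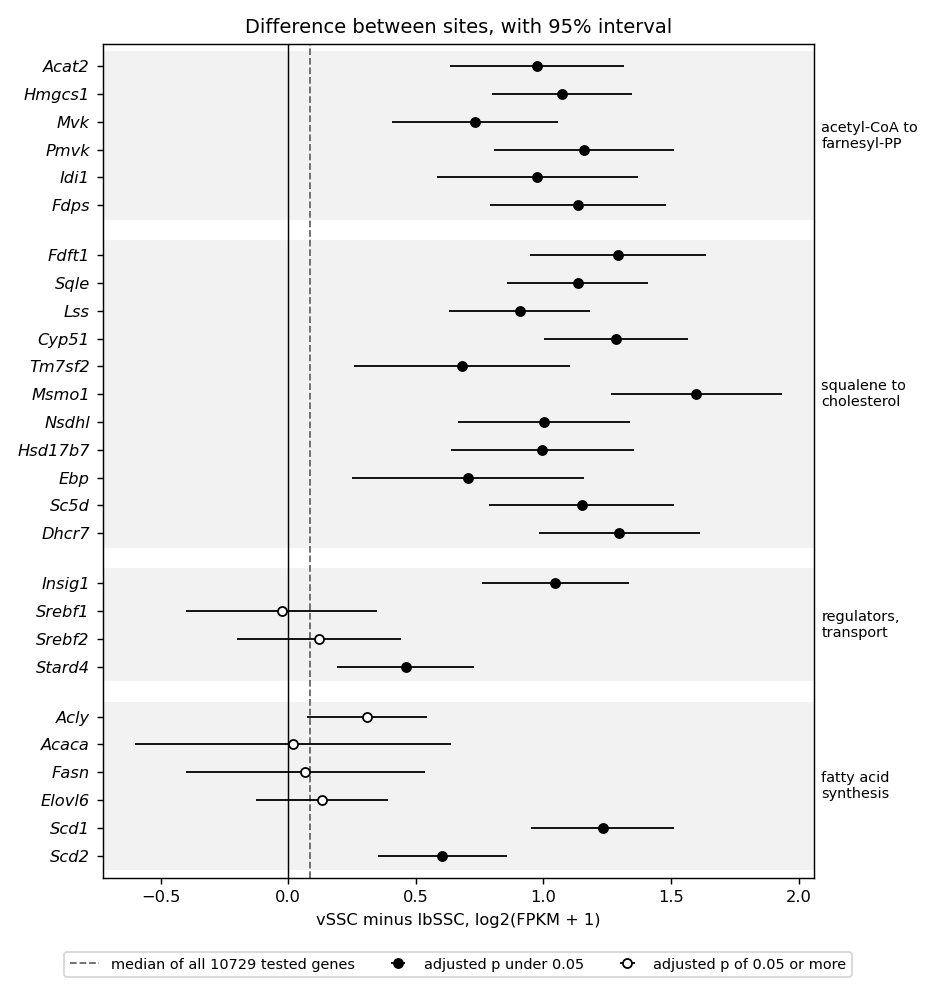
Difference between the sites on the log2(FPKM + 1) scale for each gene, vSSC minus lbSSC, with its 95% interval; filled points have an adjusted p under 0.05, and the dashed line is the median of all tested genes at 0.08. The 17 sterol enzymes lie between 0.68 and 1.60, and Srebf1, Srebf2, Acaca and Fasn lie close to 0.

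Of the 4 regulators and carriers 2 were higher and none lower. Insig1, the anchor that holds SREBP in the endoplasmic reticulum and is itself an SREBP target, was at 129.5, 135.8, 110.7 and 117.8 FPKM in vSSC and at 70.4, 66.5, 49.0 and 52.9 FPKM in lbSSC (1.05 ± 0.13, adjusted p = 0.000247). The genes of the SREBP factors themselves did not pass. Srebf2 was at 28.4, 40.1, 26.9 and 38.4 FPKM in vSSC and at 25.6, 31.7, 32.1 and 31.9 FPKM in lbSSC. The long bone values lay inside or just below the vertebral range, and the 95% interval of the difference ran from -0.20 to 0.44 (adjusted p = 0.574). Srebf1 was at 18.5, 30.2, 20.05 and 30.9 FPKM in vSSC and at 21.2, 24.6, 27.2 and 26.5 FPKM in lbSSC, with an interval from -0.40 to 0.35 (adjusted p = 0.929). In both genes vSSC replicates 1 and 3 were the low pair. A fit without these libraries, chosen after the data were seen, gave 0.37 for Srebf2 (adjusted p = 0.128) and 0.29 for Srebf1 (0.218). Leaving out the lowest vertebral values could only raise these differences, so the rise carries no information about the sites. FPKM of a gene does not report how much of the factor is cut and active.

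Stard4, which carries cholesterol between membranes, was at 28.7, 24.1, 22.9 and 24.1 FPKM in vSSC and at 20.6, 18.5, 15.2 and 17.3 FPKM in lbSSC. Its groups were separate at a smaller distance (0.46 ± 0.12, adjusted p = 0.0202). The call was lost after rescaling each library to one sum (adjusted p = 0.0533), without vSSC replicate 1 (0.0570) and without lbSSC replicate 3 (0.0687). It was also lost in the added fits, by the ribosomal covariate (0.498) and by leaving out vSSC replicates 1 and 3 together (0.102).

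The genes of fatty acid synthesis did not move as a block: 2 of 6 were higher, none lower, with a median difference of 0.22. The 2 were the stearoyl-CoA desaturases, which make oleate and palmitoleate. Scd1 was at 82.1, 80.7, 64.7 and 84.2 FPKM in vSSC and at 33.6, 38.5, 30.9 and 27.7 FPKM in lbSSC, a difference of 1.23 ± 0.13 (adjusted p = 6.89e-05) that lies within the 0.68 to 1.60 of the sterol enzymes. Scd2, the most abundant gene of the whole set, was at 214.7, 234.7, 189.6 and 235.2 FPKM in vSSC and at 140.9, 161.3, 148.9 and 123.1 FPKM in lbSSC (0.60 ± 0.12, adjusted p = 0.00383). Both had separate groups. The desaturase genes are close paralogs, and the rule for reads that fit both is not given in the sources.

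The enzymes that build the carbon chain did not pass. Acly, which supplies cytosolic acetyl-CoA to both pathways, was at 26.4, 32.9, 29.5 and 33.0 FPKM in vSSC and at 26.1, 24.1, 23.9 and 23.2 FPKM in lbSSC. These groups were separate, yet the difference of 0.31 ± 0.11 missed the threshold (adjusted p = 0.0587), and passed with library weights (0.0259) or without vSSC replicate 1 (0.0429). Fasn, the fatty acid synthase, was at 16.3, 20.6, 9.77 and 19.8 FPKM in vSSC and at 15.2, 11.6, 17.0 and 17.9 FPKM in lbSSC, with an interval from -0.40 to 0.53 (adjusted p = 0.845). Acaca, the carboxylase of the committed step, was the most scattered gene of the set, at 2.83, 6.97, 5.20 and 8.70 FPKM in vSSC and at 4.45, 3.63, 7.45 and 7.16 FPKM in lbSSC, with an interval from -0.60 to 0.64 (adjusted p = 0.969). The interval of Acaca is wide enough to hold the 0.60 of Scd2, and that of Fasn ends below it. Elovl6, which lengthens palmitate, averaged 15.4 ± 1.40 FPKM in the vertebral and 13.9 ± 1.43 FPKM in the long bone cells, and its interval from -0.13 to 0.39 leaves out the size seen for Scd2 and the sterol enzymes.

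Acaca, Fasn, Srebf1 and Srebf2 each had their lowest vertebral value in vSSC replicate 1 or 3. The share of ribosomal protein genes in summed FPKM was 21.2% and 21.4% in these libraries, 19.5% and 18.3% in vSSC replicates 2 and 4, and 15.7% to 18.4% in lbSSC. In a fit chosen after the data were seen, with that share as a covariate, the difference of Acaca was 0.98 (adjusted p = 0.0731), of Fasn 0.66 (0.214), of Srebf1 0.51 (0.133) and of Srebf2 0.53 (0.0948). The same fit lowered the sterol genes: 11 of the 27 genes were called higher, at 622 called genes in all, and their median difference was 0.66 against 0.0005 for all tested genes. The genes called there as well as in the fit without a covariate were Hmgcs1, Fdps, Fdft1, Sqle, Lss, Cyp51, Msmo1, Dhcr7, Insig1, Scd1 and Scd2. The ribosomal share differs between the sites with almost no overlap, so the covariate and the site can hardly be told apart.

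Summed over the 17 sterol enzymes, FPKM was 859.2, 843.8, 813.5 and 690.4 in vSSC and 396.2, 412.8, 309.7 and 278.4 in lbSSC, a ratio of means of 2.30. As a share of summed FPKM this was 0.146% ± 0.0103 against 0.0702% ± 0.00910. The 6 fatty acid genes summed to 359.6, 391.1, 312.6 and 396.1 FPKM against 234.4, 254.9, 241.4 and 211.5, a ratio of 1.55, and most of both sums was Scd1 and Scd2. The sterol sum divided by the fatty acid sum was 1.74 to 2.60 in vSSC and 1.28 to 1.69 in lbSSC. The libraries also kept an order within each group. Of the 17 enzymes, 14 had their lowest vertebral value in vSSC replicate 4, and all 17 had their lowest long bone value in lbSSC replicates 3 or 4 (6 and 11) and their highest in replicates 1 or 2 (8 and 9). The fatty acid genes did not follow that order in vSSC, where 4 of the 6 were highest in replicate 4.

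**Figure D4:**
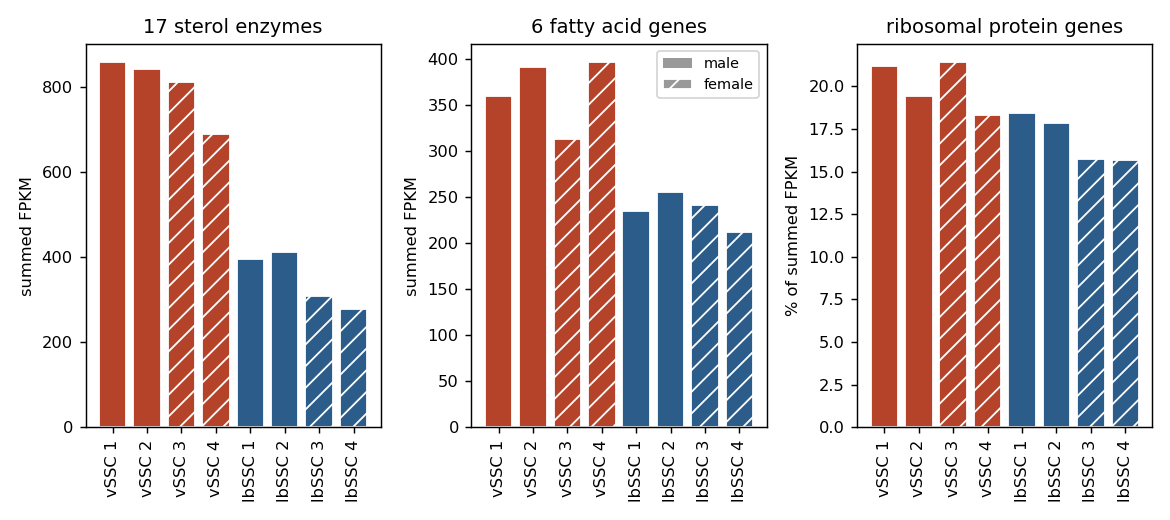
Summed FPKM of the 17 sterol enzymes (left) and of the 6 fatty acid genes (middle), and the share of ribosomal protein genes in % of summed FPKM (right), for each library, with vSSC in red, lbSSC in blue and females hatched. The sterol sum is 690.4 to 859.2 in vSSC and 278.4 to 412.8 in lbSSC, and in each group both males lie above both females.

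In lbSSC that order follows the sex labels. In vSSC it is mostly replicate 4 that is low, while female replicate 3 was highest for 3 enzymes and lowest for 1. No gene of the set was called between the sexes by limma with site as a covariate, where 0.0466% of all tested genes were called (0.0373% higher and 0.00932% lower in males). At an unadjusted p under 0.05, 13 of the 27 genes were higher in males and 1, Acaca, was lower, against 6.51% and 1.81% of all tested genes. The median male minus female difference was 0.25 for the set and 0.07 for all tested genes, and all 17 sterol enzymes lay above 0, from 0.03 to 0.47. In 9 of the 27 genes, 7 of them among the 17 enzymes, both males lay above both females in both groups, which held for 6.09% of all tested genes, and in none were both below, which held for 1.8%. Sc5d showed the smallest p: 57.3 and 50.3 FPKM in vSSC males, 41.3 and 39.1 in vSSC females, 23.2 and 25.7 in lbSSC males and 16.8 and 17.2 in lbSSC females. Its difference was 0.45 ± 0.10 with an adjusted p of 0.308 by limma. Insig1 (0.32 ± 0.09, adjusted p = 0.487), Mvk (0.38 ± 0.10, adjusted p = 0.487) and Hmgcs1 (0.29 ± 0.09, adjusted p = 0.508) were ordered the same way. Acaca went the other way at -0.61 ± 0.23 (adjusted p = 0.585).

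Other values moved with the sex labels too. Erythroid genes, which the TER119- gate should remove, summed to 4806 to 5348 FPKM in vSSC males and 3797 to 4065 in vSSC females, and to 8216 to 8742 in lbSSC males and 4240 to 4441 in lbSSC females, and in all 6 of them both males lay above both females in both groups. The ribosomal share was 17.9% and 18.4% in lbSSC males and 15.7% in both lbSSC females. Their part in the sex difference was not tested. Since males carry replicate numbers 1 and 2 and females 3 and 4 in both groups, sex and anything tied to that numbering cannot be told apart. After rescaling each library to one sum the median male minus female difference was 0.17 for the set and -0.01 for all tested genes. The difference between the sites did not pass as differing between the sexes in any of the 27 genes: limma's interaction term had an adjusted p of 0.981 or more, and 0% of all tested genes were called. At an unadjusted p under 0.05 the term was negative in 2 of the 27 genes and positive in none. Of all 10729 tested genes, it was negative in 223 and positive in 182 at that threshold.

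**Figure D5:**
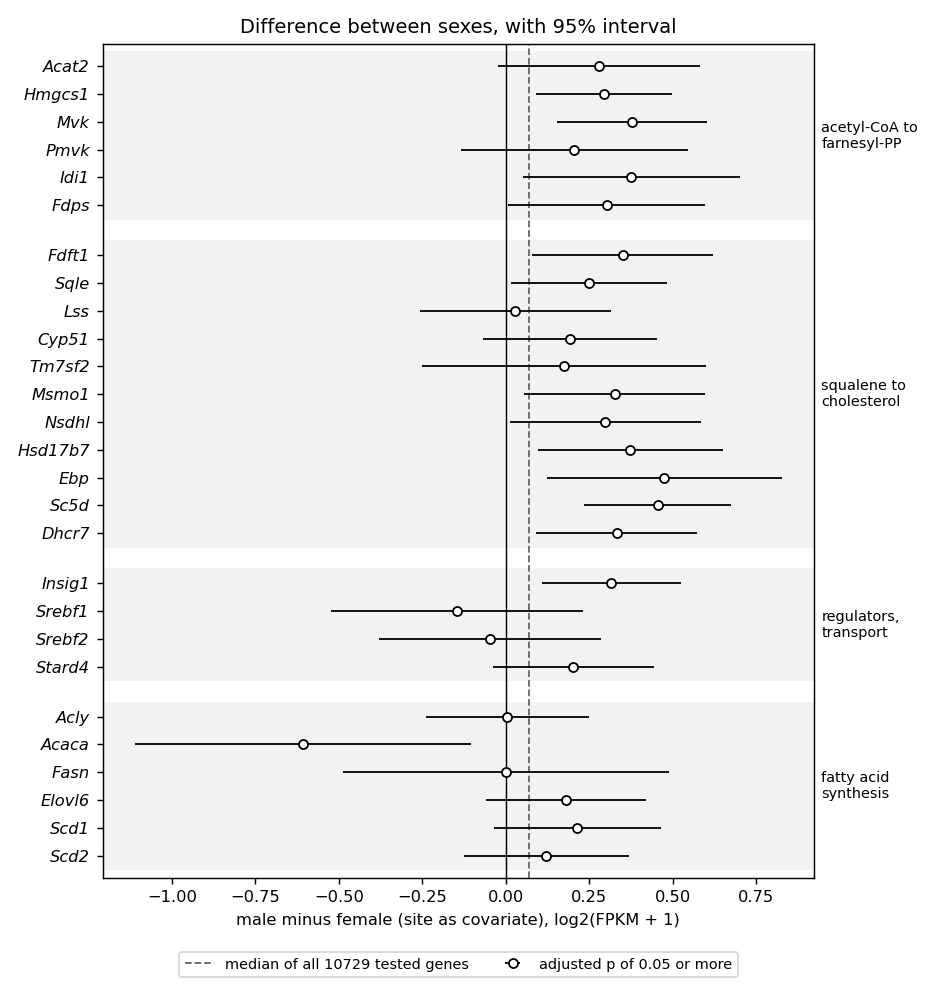
Male minus female difference on the log2(FPKM + 1) scale for each gene, with site as a covariate and its 95% interval; the dashed line is the median of all tested genes at 0.07. No gene passed at an adjusted p under 0.05 (all points open), and the sterol enzymes lie between 0.03 and 0.47 while Acaca lies at -0.61.

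Genes around the pathway were taken from 5 further lists, whose counts stand beside 14.3% of all tested genes called higher and 9.17% called lower. In sterol uptake and sensing 5 of 18 tested genes were higher in vSSC and none lower, with a median of 0.18. Scarb1, the HDL receptor, rose from 46.6 ± 5.76 to 82.8 ± 6.36 FPKM (0.82 ± 0.11, adjusted p = 0.000470), and Vldlr, a lipoprotein receptor, from 4.22 ± 0.840 to 10.1 ± 2.14 FPKM (1.09 ± 0.17, adjusted p = 0.00107). Tmem97, a sterol-responsive membrane protein, rose by 0.66 ± 0.12 (adjusted p = 0.00337). Of the 4 tested genes of cholesterol efflux and the LXR receptors none passed. None did at an unadjusted p under 0.05 either, where 2605 of the 10729 tested genes were higher and 1514 lower. Lpcat3, a phospholipid acyltransferase, was at 25.7 ± 4.66 against 20.6 ± 4.41 FPKM (adjusted p = 0.196), and Apoe was at 196.5 ± 54.2 against 152.8 ± 29.1 FPKM (adjusted p = 0.214).

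Among 27 tested genes of chain elongation, activation and lipid assembly, 10 were higher and 1 lower, with a median of 0.40. Acsl3, an acyl-CoA synthetase, rose from 13.6 ± 1.94 to 24.3 ± 2.43 FPKM (0.80 ± 0.13, adjusted p = 0.00131). Hsd17b12, of the elongation cycle, rose by 0.72 ± 0.13 (adjusted p = 0.00257), and Fads2, a desaturase of polyunsaturated fatty acids, by 0.85 ± 0.15 (adjusted p = 0.00295). The gene that fell was Dgat2, the last enzyme of triglyceride synthesis, from 3.84 ± 0.631 to 2.06 ± 0.221 FPKM (-0.66 ± 0.15, adjusted p = 0.00880; named after its value was seen). Branches that use farnesyl diphosphate for prenylation, ubiquinone and dolichol had 2 of 14 genes higher, at the 14.3% of all tested genes, and none lower. The 2 were Zmpste24 (0.53 ± 0.11, adjusted p = 0.00628) and Fnta (0.34 ± 0.11, adjusted p = 0.0453). In fatty acid oxidation 2 of 22 genes were higher and 4 lower, against 14.3% and 9.17% of all tested genes, with a median of 0.09. Cpt1a, which lets fatty acids into mitochondria, fell from 3.96 ± 0.560 to 2.03 ± 0.326 FPKM (-0.71 ± 0.15, adjusted p = 0.00645) and Pdk4, which spares glucose, fell from 2.83 ± 0.486 to 1.22 ± 0.428 FPKM (-0.80 ± 0.18, adjusted p = 0.00929), while Slc25a20, the carnitine carrier, rose by 0.69 ± 0.15 (adjusted p = 0.00911).

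Marker lists of other cell types and states were read in the same libraries, beside 14.3% of all tested genes called higher in vSSC and 9.17% called lower. Of 15 tested proliferation genes 13 were higher in vSSC and none lower, with summed FPKM of 283.0 to 362.3 against 148.7 to 215.5 for the list. Mki67, also on the list, did not reach the filter and was not tested. It was at 0.02 to 0.23 FPKM in vSSC and at 0.14 to 0.49 in lbSSC. Neutrophil genes summed to 294.9 to 462.5 FPKM in vSSC and 29.6 to 123.7 in lbSSC, 6 of 7 tested genes being higher, while Ptprc stayed at 0.95 FPKM or less. Osteoblast genes summed to 1608 to 1874 FPKM against 4606 to 6679, with 1 of 7 higher and 2 lower. In the Schwann cell list 3 of 5 tested genes were higher, with sums of 294.0 to 300.3 against 259.9 to 288.2, most of it Pmp22 and S100b. Adipocyte genes summed to at most 6.47 FPKM, with Cidec, Cfd, Lep and Retn at 0 in all libraries, and 1 tested gene, Adipoq, lower in vSSC. Macrophage and osteoclast genes summed to 58.8 to 79.7 against 110.1 to 133.6 FPKM (3 of 3 lower), erythroid genes to 3797 to 5348 against 4240 to 8742 (1 of 6 lower), endothelial genes to at most 0.29 and chondrocyte genes to 13514 to 22308 against 15473 to 25262 (2 of 9 higher). Of the muscle list, Tnnt3 alone was tested and was higher, while Myh3 and Myod1 were at 0 throughout. The part of these groups in the sterol difference was not tested.

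The genes lie on 15 chromosomes in GRCm38, so no single region holds them. Hmgcs1 lies on chromosome 13 at 119690462 to 119708086, Msmo1 on chromosome 8 at 64718139 to 64733792 and Sc5d on chromosome 9 at 42254177 to 42264300. Ebp and Nsdhl lie on the X chromosome, and Scd1 and Scd2 are neighbours on chromosome 19, at 44394451 to 44407709 and 44293676 to 44306864. Exons of another protein-coding gene overlap those of Fdft1 (Ctsb), Cyp51 (Akap9) and Srebf1 (Rai1) on the opposite strand and those of Tm7sf2 (Vps51) and Fdps (Gm43738) on the same strand. The kit does not mark the strand, so reads in these overlaps cannot be assigned by strand.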

How the data were processed

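RNA was measured in 8 bulk libraries, 4 per site. Per the labels' protocols, cDNA came from the SMART-Seq v4 kit and libraries from Nextera XT, which do not keep strand. The deposited table holds FPKM per gene, and the submitters' processing notes name bcl2fastq 2.19, STAR 2.5.2, Cufflinks 2.1.1 and GRCm38. FPKM was kept as deposited, since reads per library were not used here, and genes with at least 1 FPKM in at least 4 libraries were tested on log2(FPKM + 1) with limma 3.58.1 in R 4.3.3, with a variance trend and Benjamini-Hochberg adjustment over all 10729 tested genes. FPKM divides by the library total, so a group of abundant genes that differs between libraries shifts all others. No 2 libraries held identical values. The genes and lists were chosen with earlier results of these data known. All genes of the set are described, and of each further list the counts and at most 3 tested genes with the smallest p. Beside these stand Dgat2 and Dgat1, chosen after their values were seen, and the untested Abca1, Abcg1 and Nr1h3, also named afterwards. Scaling, filter, pseudocount, covariate and left-out libraries were varied. The fits were tested on simulated data. Coordinates are those of the deposited table with 1 added to the start, and exons are from GENCODE M21.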

Additional observations from a re-analysis of the deposited data

Results flagged for a closer look

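In 5 of 60 tests of a gene within a group, 1 library stood apart from the other 3 by Dixon's 95% criterion, which chance alone gives in about 1 of 20 tests. In vSSC, replicate 4 was low for Sqle (57.0 FPKM against 70.3 to 72.3), Msmo1 (130.3 FPKM against 164.6 to 170.0) and Hsd17b7 (14.6 FPKM against 19.02 to 19.7). Replicate 1 of vSSC was high for Nsdhl, at 27.1 FPKM against 19.2 to 19.7. In lbSSC, replicate 1 was low for Srebf2, at 25.6 FPKM against 31.7 to 32.1. Without vSSC replicate 4 the 21 calls of the set stayed at 21.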

How the results depend on the processing

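The number of the 27 genes called higher was 18 to 21 when 1 library was left out, 19 with no filter, 20 after quantile normalization or rescaling to one sum, and 22 with library weights, and none was called lower in any fit. Of the 21 calls, 18 held in each of the 20 alternatives other than the ribosomal covariate, and 11 in all 20; the 3 exceptions were Ebp, Tm7sf2 and Stard4. All tested genes gave 1534 calls (without lbSSC replicate 3) to 2991 calls (without vSSC replicate 4) when 1 library was left out. They gave 1673 and 1646 without vSSC replicates 1 or 3 and 1589 without lbSSC replicate 4. The next 2 fits were added once the values were known. Leaving out both vSSC replicates 1 and 3 gave 1095 calls in all and 18 in the set, and the ribosomal protein share as a covariate gave 622 in all and 11 in the set, with a median of 0.66. That covariate overlaps the site, and the cause of its effect was not tested. The set's median minus that of all genes was 0.81 to 0.97 in all other fits. Among genes not called, the sign changed in 7 of the 20 alternatives for Srebf1, 6 for Acaca and Fasn, 2 for Srebf2 and 1 for Elovl6. No gene of the set was called between the sexes or in the interaction in any fit run.

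Replicate numbers were not shown to pair the samples: same-numbered libraries correlated at 0.257, -0.088, -0.064 and 0.435 in their deviations from the group means, and vSSC replicate 2 correlated best with lbSSC replicate 4 (0.162). With the replicate block, 3194 genes were called against 2518 without it, and 21 of the set were higher in both fits. FPKM without reads gives no counting error, which limits the lowest genes most.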
